A study of Mus musculus with 9 samples.

Results

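Cell cycle and proliferation genes were described in 9 mouse kidney RNA-seq libraries as a set of 37 genes, chosen by name from those that copy DNA in S phase or carry out mitosis. The set holds 37 of the 54532 gene identifiers counted, and all 37 passed the filter on low counts that left 16646 genes for testing. Of these, 16 act in S phase (entry cyclins, origin licensing and the MCM helicase, fork proteins and nucleotide supply) and 21 in mitosis (cyclins and CDK1, kinases and the checkpoint, spindle proteins, and the markers Mki67 and Top2a). The study asked how a STING antagonist alters kidney gene expression in Trex1-/- mice, a lupus-like model in which loss of the exonuclease TREX1 leaves cytosolic DNA for the sensor cGAS, which signals through STING. Polyadenylated RNA of whole kidney was sequenced. The 3 groups of 3 libraries were wild-type mice (WT), Trex1-/- mice given vehicle, which was PBS with Tween (the PBS group), and Trex1-/- mice given SN-011, the STING antagonist. Both Trex1-/- groups were injected intraperitoneally every day for 2 weeks from the age of 1 month, with SN-011 at 10 mg/kg. All 9 libraries carry the strain label C57BL/6J. The Trex1-/- mice came from heterozygous crosses and the WT mice from a breeder, and they are not described as littermates. The study's WT mice were bought when a few weeks old, and their age when these kidneys were taken, any injection of them and the sex of all animals are not given in the sources used here.

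The cell cycle is driven by waves of transcription. E2F factors, released from the retinoblastoma protein and its relatives p107 and p130, switch on S phase genes such as the MCM helicase and PCNA. Later, the MuvB complex, first with B-MYB and then with FOXM1, switches on mitotic genes through a promoter element called the CHR (cell cycle genes homology region). Most cells of an adult kidney are out of the cycle, so transcripts of mitotic genes are rare there. In RNA of a whole organ, fewer cells of a type and less RNA per cell cannot be told apart.

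The libraries held 16118813 to 21928965 counts, with reads for 23180 to 24657 genes and TMM scaling factors of 0.926 to 1.06. Trex1 was listed at 0 counts in 9 of 9 libraries, WT included, where 3 counts would be 0.137 to 0.186 CPM, so the genotype rests on the labels. The 7 kidney epithelial markers summed to 15472 to 16306 CPM in WT, 13946 to 15054 CPM with PBS and 14210 to 15114 CPM with SN-011. Every WT library thus lay above every Trex1-/- library in this sum. Reads of Y-linked genes (153 to 188 CPM) were present in the 3 PBS libraries, in WT replicate 3 and in SN-011 replicate 2, while the other 4 libraries carried Xist (434 to 503 CPM). Sex-linked transcripts therefore differ between the groups. Each comparison was also fitted with a term for Y-linked reads. Its values are given for medians over the set and for some genes of the set, and not for the further cell cycle genes.

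RefSeq windows on GRCm38.p6, from 250 bases before to 50 after a start site, were found for 32 of the 37 genes and searched on both strands for exact letters. The CHR, TTTGAA, was in a window of 13 of 18 mitotic genes (72.2%) and 2 of 14 S phase genes (14.3%), against 14.8% of the 11808 tested genes with a window and 17.9% of all windows. An E2F site, searched as TTTGGCGC, TTTCCCGC or TTTCGCGC, was in 6 of 14 S phase genes (42.9%) and 1 of 18 mitotic genes (5.56%, Cdk1), against 3.7% of tested genes and 1.84% of all windows. The CCAAT box, CCAAT, was in 16 of 18 mitotic genes (88.9%) and 10 of 14 S phase genes (71.4%), against 42% of tested genes and 37.4% of all windows. A match is a description of the letters and not a measured binding site.

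Promoters of 6 genes are printed 5′ to 3′ on the strand of the gene with every match in capitals. On the opposite strand the CHR reads TTCAAA and the CCAAT box ATTGG, and E2F letters of both strands overlap in Mcm6. Ccnb2 (chr9:70421505-70421804, minus strand), Mki67 (chr7:135716330-135716629, minus strand) and Top2a (chr11:99024140-99024439, minus strand) show mitotic genes with CHR and CCAAT letters. Cdk1 (chr10:69352863-69353162, minus strand) holds CHR, CCAAT and E2F letters together. Mcm6 (chr1:128359656-128359955, minus strand) shows an S phase gene with E2F letters, and Blm (chr7:80534949-80535248, minus strand), the only gene of the set with no overlap between any pair of groups, has CCAAT letters and no match to the CHR or E2F letters in this window.
Ccnb2: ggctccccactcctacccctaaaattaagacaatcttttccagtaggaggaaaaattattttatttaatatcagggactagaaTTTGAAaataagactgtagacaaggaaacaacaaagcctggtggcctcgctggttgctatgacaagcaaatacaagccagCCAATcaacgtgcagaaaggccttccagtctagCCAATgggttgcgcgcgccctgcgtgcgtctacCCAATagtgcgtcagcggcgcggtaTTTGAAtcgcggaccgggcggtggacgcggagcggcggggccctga
Mki67: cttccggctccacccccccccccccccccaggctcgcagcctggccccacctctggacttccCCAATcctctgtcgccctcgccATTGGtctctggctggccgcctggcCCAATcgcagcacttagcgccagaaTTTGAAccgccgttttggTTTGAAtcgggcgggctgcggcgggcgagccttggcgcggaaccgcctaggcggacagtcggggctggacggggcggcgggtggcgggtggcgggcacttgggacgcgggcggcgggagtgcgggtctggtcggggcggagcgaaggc
Top2a: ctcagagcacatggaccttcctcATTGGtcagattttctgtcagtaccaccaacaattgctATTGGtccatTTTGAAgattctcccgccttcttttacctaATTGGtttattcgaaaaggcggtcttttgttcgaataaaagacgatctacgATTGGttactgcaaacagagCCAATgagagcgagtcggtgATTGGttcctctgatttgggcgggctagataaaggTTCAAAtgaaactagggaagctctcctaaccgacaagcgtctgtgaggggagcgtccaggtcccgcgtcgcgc
Cdk1: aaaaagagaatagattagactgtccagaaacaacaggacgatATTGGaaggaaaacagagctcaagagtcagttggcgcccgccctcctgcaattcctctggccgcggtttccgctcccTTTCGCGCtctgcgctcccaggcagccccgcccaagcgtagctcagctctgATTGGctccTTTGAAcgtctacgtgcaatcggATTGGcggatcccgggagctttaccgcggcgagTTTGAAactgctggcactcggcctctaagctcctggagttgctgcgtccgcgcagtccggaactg
Mcm6: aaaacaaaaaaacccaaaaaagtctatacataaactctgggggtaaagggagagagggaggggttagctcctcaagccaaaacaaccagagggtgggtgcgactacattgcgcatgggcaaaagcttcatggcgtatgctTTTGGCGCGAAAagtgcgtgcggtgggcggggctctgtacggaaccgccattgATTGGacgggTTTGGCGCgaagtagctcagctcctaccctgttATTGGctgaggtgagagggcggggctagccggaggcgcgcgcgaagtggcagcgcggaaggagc
Blm: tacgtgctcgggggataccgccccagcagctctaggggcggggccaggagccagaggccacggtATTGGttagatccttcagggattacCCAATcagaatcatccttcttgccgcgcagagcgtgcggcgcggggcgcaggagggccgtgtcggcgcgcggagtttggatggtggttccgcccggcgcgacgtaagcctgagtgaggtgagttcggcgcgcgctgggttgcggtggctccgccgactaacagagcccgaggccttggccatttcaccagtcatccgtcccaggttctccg

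**Figure D1:**
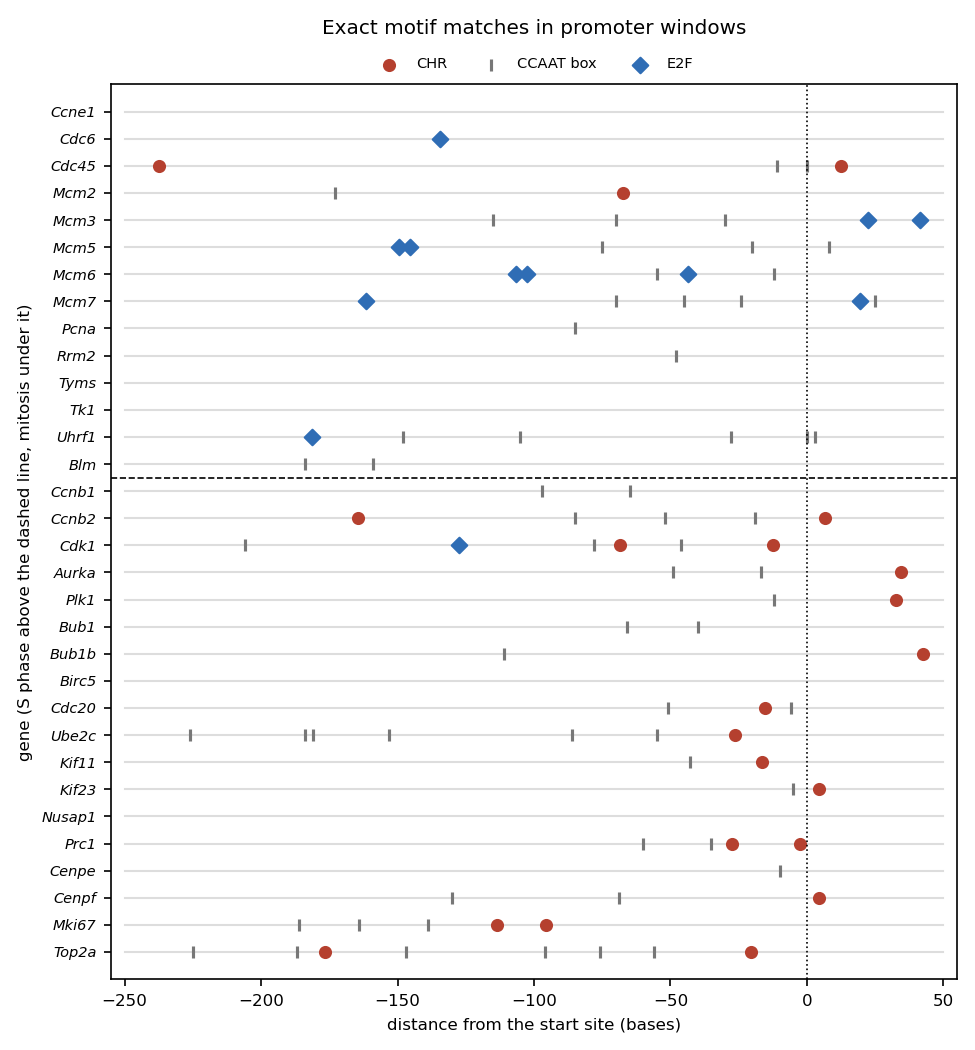
Positions of exact motif matches in the promoter windows of 32 genes, with the distance from the start site in bases on the x axis and 1 gene per row, S phase genes above the dashed line. Circles mark the CHR, ticks the CCAAT box and diamonds E2F letters, and genes with several windows show each window's matches from its own start site. Circles lie in 13 of 18 mitotic rows and diamonds in 6 of 14 S phase rows.

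Levels are given as CPM (read counts relative to library size, scaled by TMM). Per kilobase of exon, the mean level over the 9 libraries ran from 0.186 CPM for Cenpf, a kinetochore protein, to 21 CPM for Pcna, the sliding clamp of DNA polymerases. The median was 2.25 CPM per kilobase in the S phase genes and 0.862 in the mitotic genes. Counts per library were low for many mitotic genes, down to 3 reads for Ccnb1 and Bub1 in SN-011 replicate 1. No gene of the set shared over 3.9% of its exonic bases with another gene on the same strand. In 7 genes more than 5% was shared with a gene on the opposite strand (highest 22.8%, Ube2c, and 12.5% for Ccna2), and since the strand setting of the counting was not given in the sources used here, reads of such partners cannot be told apart.

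Levels of the mitotic genes varied between the libraries of a group. Summed over the 21 mitotic genes, the level was 39.8, 36.8 and 81.1 CPM in WT replicates 1, 2 and 3, it was 117, 110 and 147 CPM with PBS, and it was 32.1, 74.7 and 144 CPM with SN-011. The PBS libraries thus lay above all WT libraries, while the SN-011 libraries ran from below the lowest WT library to the level of the PBS group. The median SD of the mitotic genes between replicates on the log2 scale was 0.82 in WT, 0.32 with PBS and 1.31 with SN-011, and over all genes tested it was 0.15, 0.15 and 0.21. The mitotic genes had a median level of only 2.98 CPM, and low counts raise this SD, so its size is not set against that of other genes.

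Summed over the 16 S phase genes, the level was 166, 158 and 273 CPM in WT, 213, 213 and 257 CPM with PBS and 163, 173 and 237 CPM with SN-011. All 3 groups overlapped, and WT replicate 3 was the highest library. WT replicate 3 exceeded both other WT libraries in 33 of 37 genes, SN-011 replicate 3 was the highest SN-011 library in 33, and SN-011 replicate 1 was the lowest in 32. The share of all genes with these orders was not counted, so they cannot be told apart from differences of whole libraries. Between SN-011 replicates 3 and 1 the ratio of levels had a median of 1.44 in the S phase genes and 6.74 in the mitotic genes. It was highest in Ccnb1, with 99 reads against 3 and a ratio of 34.6 (exact 95% interval 11.5 to 170, counting error only).

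**Figure D2:**
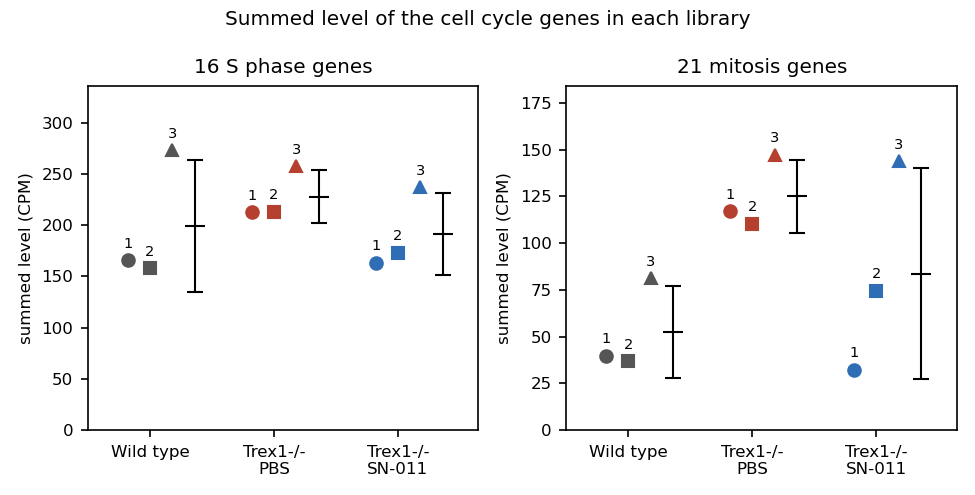
Summed level in CPM (y axis) of the 16 S phase genes and the 21 mitotic genes in each library, by group (x axis), with replicate numbers above the points and the mean ± SD (n = 3) as bars beside them. The PBS libraries reach 110 to 147 CPM in the mitotic genes, above all WT libraries, and the SN-011 libraries span 32.1 to 144 CPM.

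Expressed as the median log2 CPM of the 37 genes, the level of each library was 0.89, 1.10 and 2.06 in WT, 2.23, 2.01 and 2.92 with PBS, and 0.90, 1.62 and 2.72 with SN-011. WT replicate 3 was the only WT library inside the PBS range. As a mean over the 37 genes in place of the median it was 2.43, below the lowest PBS library (2.56), so that this overlap was absent. All 3 PBS libraries lay above WT replicates 1 and 2 in 33 of 37 genes, where 21.5% of all genes tested did so, and above SN-011 replicate 1 in 35, where 33.7% did so. WT replicates 1 and 2 and SN-011 replicate 1 had the lowest levels of all libraries, so both counts follow in part from this choice. Those libraries carried Xist and every PBS library Y-linked reads, which the counts cannot tell apart from genotype or treatment.

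**Figure D3:**
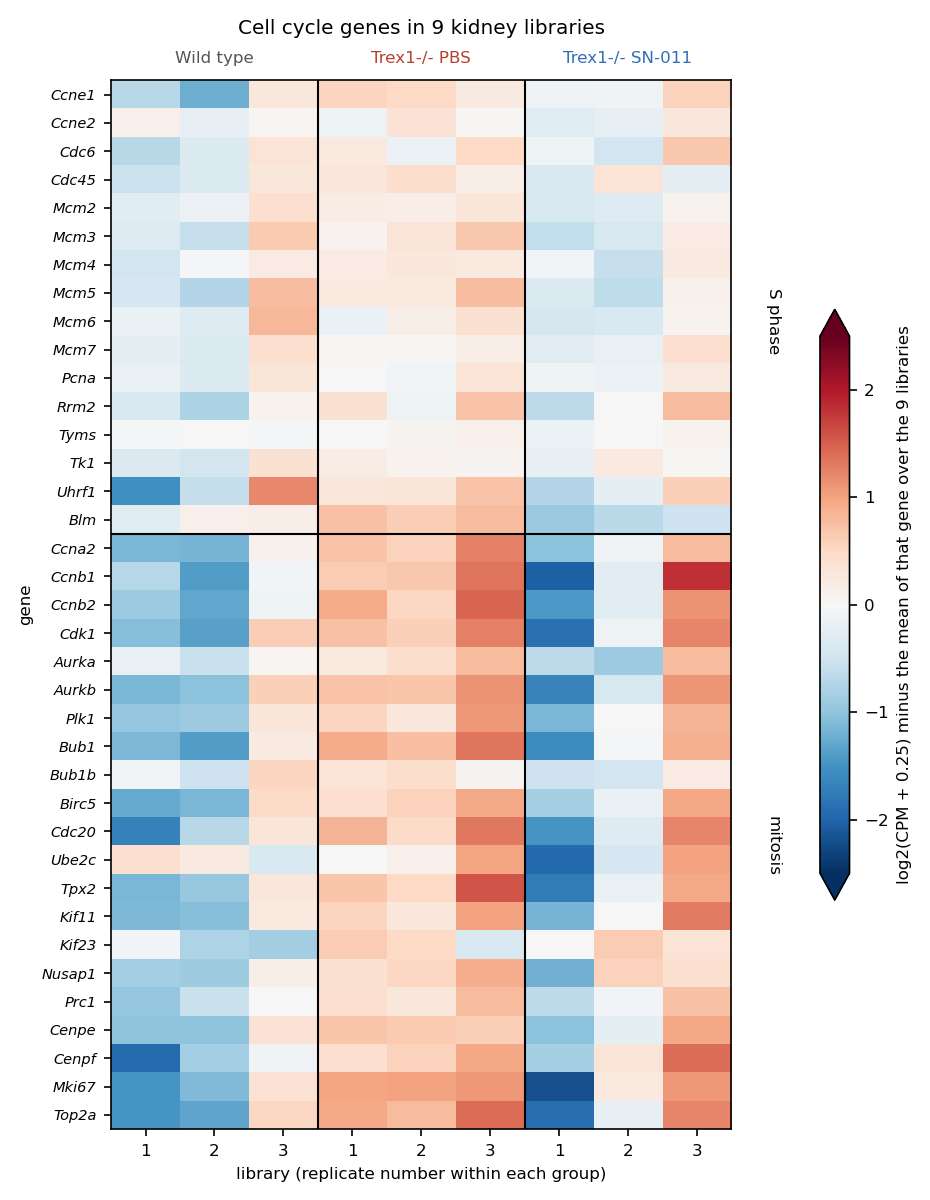
Heat map of the 37 genes (rows, S phase above the line and mitosis under it) in the 9 libraries (columns, by group and replicate), coloured by log2(CPM + 0.25) minus the mean of that gene over all libraries. WT replicates 1 and 2 and SN-011 replicate 1 are blue in most mitotic genes, and the PBS libraries and SN-011 replicate 3 are mostly red.

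The first comparison, PBS against WT, asks how the genes differ in kidneys that lack TREX1. By edgeR's quasi-likelihood test 0 of 37 genes had an adjusted p under 0.05, where 1.88% of all 16646 genes did. DESeq2 called 2 of 37, Ccna2 and Ccnb2 (adjusted p 0.0197 and 0.0287, against 4.36% of all genes called). EdgeR's exact test and limma-voom called 0, against 4.1% and 1.89% of all genes. Without the filter on low counts Ccna2 and Ccnb2 passed (2.29% of all genes did), with only the 6 libraries compared Ccnb1 did too (4.64%), and with the replicate number as a block Ccna2 alone did (1.87%). At an unadjusted p under 0.05, 12 genes were higher with PBS (11 mitotic genes and Blm) and none was lower (0 of 37), where 7.63% of all genes were higher and 7.58% lower. PBS lay wholly above WT in 17 of 37 genes (15 mitotic genes, Blm and Mcm4), where 13.1% of all genes did so, and wholly below WT in 0, where 12.3% did so.

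The median log2 difference between PBS and WT was 0.34 over the S phase genes and 1.34 over the mitotic genes, and 0.00 over all genes tested. The fitted difference was above 0 in 36 of 37 genes. Without WT replicate 3 the medians were 0.68 and 2.17, without WT replicate 1 they were 0.18 and 1.04, without WT replicate 2 they were 0.13 and 1.02, and without PBS replicate 3 they were 0.21 and 1.18. Across all genes WT replicate 3 stood apart from the other WT libraries, with a variance of 30.8 and 30.5 times counting error against 7.74 between those. Without WT replicate 3, all WT libraries carried Xist and all PBS libraries Y-linked reads, so genotype cannot be told apart from these. In that fit 26 genes were higher at an unadjusted p under 0.05, where 8.59% of all genes were. That number was 20 without SN-011 replicate 1 (8.03% of all genes) or SN-011 replicate 3 (7.82%), 4 without WT replicate 1 (5.87%), and 3 without WT replicate 2 (5.23%) or PBS replicate 3 (7.57%). With the Y-linked term the medians were 0.10 and 1.01, and 2 genes were higher at an unadjusted p under 0.05, where 5.74% of all genes were. Among libraries with Y-linked reads, all 3 PBS libraries lay above WT replicate 3 in 17 of 21 mitotic genes and 3 of 16 S phase genes, where 29.8% of all genes tested did so. They lay below it in 1 mitotic gene and 5 S phase genes, where 28.4% of all genes did so. With the Y-linked term the log2 difference of Cdc45 was 0.047, beside 0.52 without it. Mcm6 was at -0.33 with that term, Ccne1 at 0.81, Ccne2 at 0.18, Pcna at 0.037 and Blm at 0.67. Of the mitotic genes, Ccna2 was at 1.27, Bub1 at 1.55, Cdc20 at 1.28, Kif23 at 0.82, Mki67 at 1.16 and Top2a at 1.22.

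Among the cyclins that start S phase, Ccne1 was at 0.377, 0.181 and 0.983 CPM in WT, 1.22, 1.17 and 0.932 CPM with PBS and 0.680, 0.696 and 1.25 CPM with SN-011. PBS replicate 3 lay below WT replicate 3, and the log2 difference between PBS and WT was 1.15 (SE 0.52, edgeR adjusted p 0.331). Ccne2, the other E-type cyclin, was at 3.16, 2.44 and 2.95 CPM in WT, 2.62, 3.74 and 2.92 CPM with PBS and 2.27, 2.43 and 3.56 CPM with SN-011. Its groups overlapped throughout, with a log2 difference of 0.12 (SE 0.25, edgeR adjusted p 0.855).

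Origin licensing loads the MCM helicase, which CDC45 then activates. Mcm6, the helicase subunit of highest level, was at 25.2, 22.7 and 51.1 CPM in WT, 25.5, 31.4 and 37.4 CPM with PBS and 21.3, 21.8 and 30.3 CPM with SN-011. WT replicate 3 held the highest value of all libraries, and Mcm6 alone had a fitted difference below 0 between PBS and WT (log2 -0.07, SE 0.29, edgeR adjusted p 0.935). Cdc45 was at 1.65, 1.90 and 3.12 CPM in WT, 3.11, 3.50 and 2.86 CPM with PBS and 1.87, 3.25 and 2.08 CPM with SN-011, a log2 difference between PBS and WT of 0.52 (SE 0.30, adjusted p 0.453). The other 6 genes of this role (Cdc6 and Mcm2, 3, 4, 5 and 7) had fitted differences of 0.11 to 0.50. Only Mcm4 did not overlap among them, with 12.3 to 12.8 CPM in PBS against 7.64 to 12.1 CPM in WT.

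At the fork, Pcna was at 43.4, 39.2 and 61.4 CPM in WT, 49.9, 47.1 and 62.7 CPM with PBS and 46.2, 44.6 and 58.3 CPM with SN-011. Replicate 3 was the highest library of each group, and the log2 difference of PBS from WT was 0.15 (SE 0.18, edgeR adjusted p 0.737). The nucleotide supply enzymes Rrm2, Tyms and Tk1 differed by 0.70, 0.10 and 0.22, and Uhrf1, which copies DNA methylation, by 0.35. Tyms varied least of the 37 genes, between 13.7 and 16.7 CPM in all 9 libraries. Uhrf1 had the largest SD of log2 CPM within a group among the S phase genes, 1.44 in WT, from 1.56 CPM in WT replicate 1 to 11.7 CPM in WT replicate 3.

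Blm (ENSMUSG00000030528, GRCm38 chr7:80454733-80535119, minus strand) encodes the BLM helicase, which dissolves recombination intermediates. It was at 1.27, 1.81 and 1.85 CPM in WT, 2.86, 2.63 and 2.98 CPM with PBS and 0.737, 0.927 and 1.07 CPM with SN-011. The 3 groups did not overlap with one another, the PBS group was highest and the SN-011 group lowest. The log2 difference of PBS from WT was 0.78 (SE 0.24, unadjusted p 0.00929, edgeR adjusted p 0.161), 1.72-fold, which did not pass the threshold.

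Ccna2 encodes cyclin A2, which acts in S phase and at mitotic entry. It was at 1.74, 1.72 and 4.51 CPM in WT, 6.94, 6.31 and 10.3 CPM with PBS and 1.93, 3.88 and 7.36 CPM with SN-011. The lowest PBS library lay above the highest WT library, the log2 difference was 1.58 (SE 0.49) and the unadjusted p was 0.00887, the smallest of the set in this comparison (edgeR adjusted p 0.157). Over the alternatives tried its adjusted p ran from 0.0135 to 0.437. The B-type cyclins, which bind CDK1 to start mitosis, differed by 1.82 (Ccnb1) and 1.90 (Ccnb2) without overlap, and Cdk1 by 1.34 with WT replicate 3 (4.63 CPM) just above PBS replicate 2 (4.61 CPM).

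Bub1, a kinase of the spindle checkpoint, had the largest fitted difference of the set. It was at 0.330, 0.226 and 1.21 CPM in WT, 2.13, 1.87 and 2.92 CPM with PBS and 0.170, 0.985 and 2.08 CPM with SN-011. PBS and WT did not overlap, and the log2 difference was 2.01 (SE 0.73, edgeR adjusted p 0.223), 4.04-fold. Cdc20, which activates the anaphase-promoting complex, was at 0.896, 2.03 and 4.34 CPM in WT, 6.39, 4.90 and 9.01 CPM with PBS and 1.08, 2.72 and 8.37 CPM with SN-011, a difference of 1.5 (SE 0.67, adjusted p 0.328). Of the other kinase, checkpoint and exit genes, Aurka and Aurkb did not overlap, while Plk1, Birc5, Bub1b and Ube2c did. Bub1b and Ube2c had the smallest differences of the mitotic genes, 0.27 and 0.33.

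Kif23, a kinesin of the central spindle in dividing cells, followed the other mitotic genes least. It was at 9.85, 5.96 and 5.61 CPM in WT, 16.3, 14.7 and 7.83 CPM with PBS and 10.3, 16.3 and 13.3 CPM with SN-011. WT replicate 3 was its lowest WT library and PBS replicate 3 its lowest PBS library, opposite to most of the set. Across the 9 libraries its log2 CPM had a Pearson r of 0.18 with the median of the other members, the lowest of all 37 genes, where Plk1 had 0.99. The libraries share their depth and scaling in such values. PBS differed from WT by 0.86 (SE 0.30, edgeR adjusted p 0.213). The other 6 spindle and kinetochore genes (Tpx2, Kif11, Nusap1, Prc1, Cenpe and Cenpf) differed by 1.05 to 1.64 without overlap.

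Mki67, the gene of the proliferation marker Ki-67, was at 2.5, 3.3 and 9.49 CPM in WT, 14.8, 15 and 16 CPM with PBS and 1.42, 8.81 and 15.9 CPM with SN-011. The PBS libraries lay close together and above all WT libraries, a log2 difference of 1.60 (SE 0.67, edgeR adjusted p 0.293). Top2a, the topoisomerase that untangles chromosomes before they separate, was at 2.5, 2.80 and 10.7 CPM in WT, 14.4, 12.8 and 19.8 CPM with PBS and 1.81, 6.32 and 17.5 CPM with SN-011. It did not overlap between PBS and WT either, with a difference of 1.58 (SE 0.71, adjusted p 0.328).

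**Figure D4:**
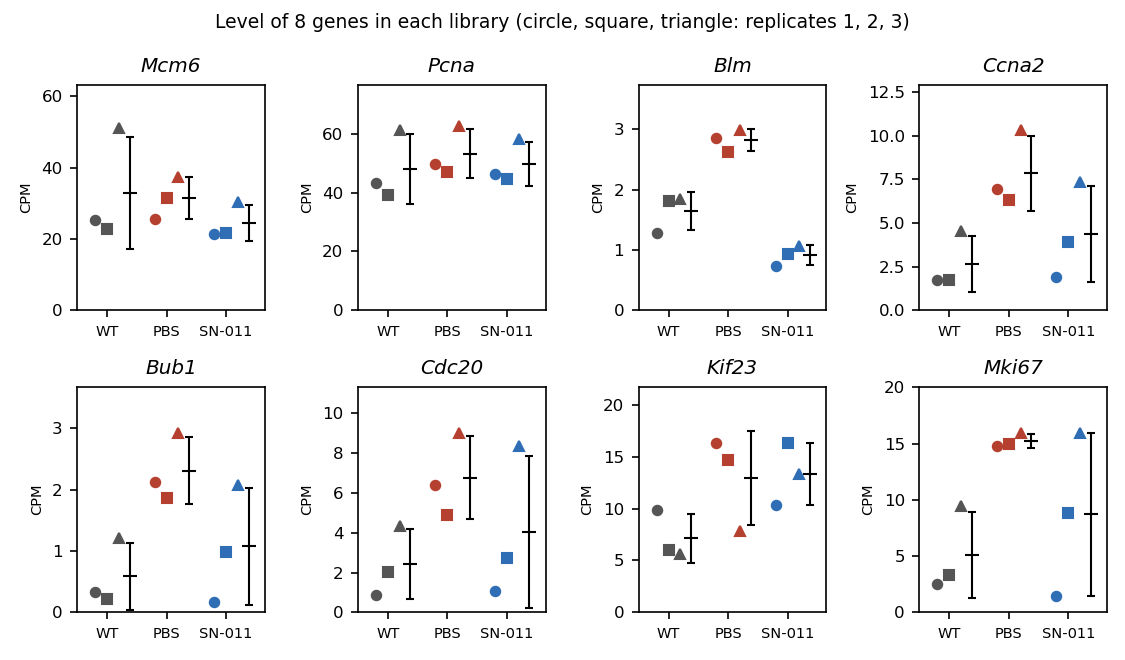
Level in CPM (y axis, from 0) of 8 genes in each library of the WT, PBS and SN-011 groups (x axis), with the mean ± SD (n = 3) beside the points. Blm is lowest with SN-011 in all 3 libraries, Ccna2, Bub1, Cdc20 and Mki67 are higher in every PBS library than in WT and spread widely with SN-011, and Mcm6 and Pcna overlap in all groups.

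Markers of other cell types were measured in the same libraries. Between PBS and WT, 1.88% of all genes were called and PBS lay wholly above WT in 13.1%. The 7 T and NK cell markers summed to 5.80 to 8.22 CPM in WT, 16 to 25.8 CPM with PBS and 6.57 to 16.5 CPM with SN-011. Of these 7, Cd3g and Cd4 were called between PBS and WT by edgeR (adjusted p 0.0329 each), and 6 of 7 did not overlap. SN-011 replicate 1 held the lowest of the SN-011 sums and PBS replicate 3 the highest of the PBS sums, as in the mitotic genes. The 6 macrophage and myeloid markers summed to 133 to 153 CPM in WT, 206 to 235 CPM with PBS and 118 to 187 CPM with SN-011, with C1qa called (adjusted p 0.0133) and 5 of 6 without overlap, and the same libraries were lowest with SN-011 and highest with PBS. The 5 B and plasma cell markers summed to 8.40 to 9.08 CPM in WT, 19.7 to 24.4 CPM with PBS and 13.7 to 33.2 CPM with SN-011, with 3 of 5 tested and Jchain called (adjusted p 0.0175). The 4 erythroid markers summed to 518 to 1667 CPM in WT, 294 to 615 CPM with PBS and 90.6 to 212 CPM with SN-011, with WT replicate 3 highest. Of the 3 erythroid markers tested, all had SN-011 wholly below both other groups, where 8.41% of all genes lay wholly below PBS and 9.99% wholly below WT, and Hba-a1 and Hbb-bs were called lower with SN-011 than in WT (edgeR adjusted p 0.0205 and 0.0424), where 1.28% of all genes were called. The 5 tubular injury markers summed to 60.1 CPM in WT replicate 3 and to 20.9 to 50.8 CPM elsewhere, with Havcr1 at 16 CPM there and at most 4.98 CPM in the other libraries. SN-011 replicate 1 was the lowest SN-011 library in the B and plasma cell and erythroid sums as well. The same held for the endothelial sum (282 against 375 and 338 CPM) and the kidney epithelial sum (14210 against 15114 and 14632 CPM). It did not hold for the tubular injury sum (30.3 CPM, against 27.5 CPM in replicate 3). With SN-011 the myeloid sum was highest in replicate 2 (187 CPM, against 159 CPM in replicate 3), unlike the mitotic genes. The part of these cells in the cell cycle values was not tested.

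In the wider cell cycle network, 112 further genes were examined in 6 lists and 110 passed the filter. Between PBS and WT, 1 of the 110 was called by edgeR, where 1.88% of all genes were. It was the G1 cyclin Ccnd2, which pairs with CDK4 and CDK6. It was at 21.3, 17.2 and 19.1 CPM in WT, 28.1, 33.0 and 26.9 CPM with PBS and 24.5, 26.8 and 27.4 CPM with SN-011. All Trex1-/- libraries lay above all WT libraries, and Ccnd2 rose by 0.61 on the log2 scale with PBS (SE 0.11, adjusted p 0.024), with 0.45 for SN-011 against WT (adjusted p 0.0877).

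At an unadjusted p under 0.05, 20 of 43 other mitotic genes were higher with PBS than in WT (7.63% of all genes were) and none was lower, with a median log2 difference of 1.10. In that list PBS lay wholly above WT in 23, where 13.1% of all genes did so. Kif20a, a kinesin of cytokinesis, had its smallest p and was at 1.32, 1.17 and 1.5 CPM in WT, 3.53, 2.63 and 4.10 CPM with PBS and 1.59, 1.91 and 3.56 CPM with SN-011 (log2 1.36, SE 0.33, edgeR adjusted p 0.0737). All its PBS libraries were above all WT libraries, and SN-011 replicate 3 lay within the PBS range. Of 27 tested S phase genes outside the set, 2 were higher by that measure and none was lower (median 0.26), with Dbf4, the activator of the replication kinase CDC7, first (0.73, adjusted p 0.157).

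Among 15 regulators of the 2 waves, 3 were higher with PBS by that measure and none was lower (median 0.28), where 7.63% of all genes were higher and 7.58% lower. Rbl1, which encodes the pocket protein p107, was at 9.62, 9.17 and 13.0 CPM in WT, 17.1, 17.9 and 16 CPM with PBS and 11.1, 10.5 and 13.4 CPM with SN-011. Its PBS libraries lay above those of both other groups, with log2 differences of 0.69 from WT (edgeR adjusted p 0.0571) and of -0.54 for SN-011 against PBS (adjusted p 0.27). Of 6 CDK inhibitors tested, 0 were higher and 1 was lower, Cdkn1c (p57), with a difference of -0.45 (adjusted p 0.208). Of 11 partners of BLM and genes of homologous recombination, 2 were higher and 0 lower, with Fanci first at 1.47 (adjusted p 0.171) and 0.141 to 0.831 CPM over the 9 libraries.

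**Figure D5:**
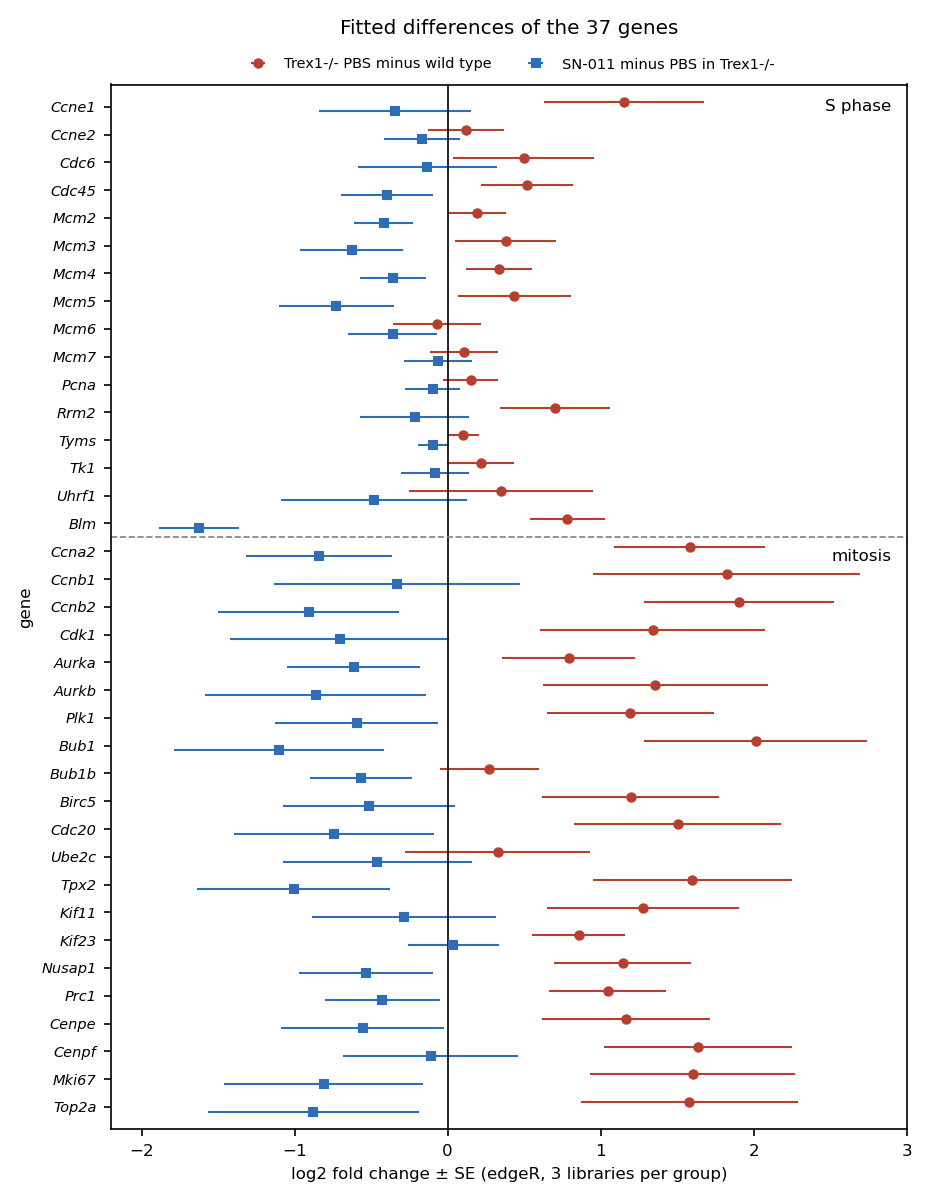
Fitted log2 fold change ± SE (x axis) of each of the 37 genes (rows, S phase above the dashed line) for PBS minus WT (circles) and SN-011 minus PBS (squares), which share the PBS libraries. Differences between PBS and WT lie above 0 in 36 of 37 genes and those between SN-011 and PBS below 0 in 36 of 37, and Blm has the largest of the latter.

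Next, the kidneys of treated Trex1-/- mice were set against those given vehicle, which asks what the STING antagonist does where TREX1 is lacking. It shares the PBS libraries with the first comparison, so the values of both are not independent. By edgeR's quasi-likelihood test 0 of 37 genes were called, where 0% of all genes were. DESeq2 and edgeR's exact test each called 1, Blm (against 1.1% and 0.763% of all genes), and limma-voom called 0, as of all genes (0%). Of the 37 genes, in the fit without a block, Blm alone was lower with SN-011 at an unadjusted p under 0.05 and 0 were higher, where 5.68% and 5.77% of all genes were. SN-011 lay wholly below PBS in 3 genes, Blm, Mcm2 and Mcm5, where 8.41% of all genes did so, and wholly above it in 0, where 7.74% did so.

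The median log2 difference between SN-011 and PBS was -0.35 over the S phase genes and -0.60 over the mitotic genes, and -0.01 over all genes tested. Over all 37 genes it was -0.48. It was -0.95 without SN-011 replicate 3, with 21 genes lower at an unadjusted p under 0.05 (6.06% of all genes were in that fit), and -0.21 without SN-011 replicate 1. Without WT replicate 3, 4 genes were lower at that level (5.93% of all genes), and without WT replicate 1 or 2 there were 2 (4.89% and 5.15%). With the Y-linked term the median was -0.20 over all 37 genes, -0.045 over the S phase genes and -0.28 over the mitotic genes. SN-011 replicate 2, in which Y-linked reads were present, lay below all 3 PBS libraries in 32 of 37 genes, where 33.3% of all genes tested did so. Across all genes that library stood apart from the other SN-011 libraries, with a variance of 76.3 and 67 times counting error against 15 between those.

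Blm was lower with SN-011 than with PBS by 1.63 on the log2 scale (log2 -1.63, SE 0.26), a level 0.324 times that of PBS, with an unadjusted p of 9.07e-05 and an edgeR adjusted p of 0.153. The highest SN-011 library (1.07 CPM) lay below the lowest PBS library (2.63 CPM) and below the lowest WT library (1.27 CPM). The difference stood at -1.75 to -1.49 when each library was left out in turn and at -1.51 with the Y-linked term. Its adjusted p ran from 0.000123 to 0.641 over the alternatives, and was under 0.05 with DESeq2 (0.0016), edgeR's exact test, no filter on low counts (0.0147, with 0.411% of all genes called) or SN-011 replicate 2 left out (0.0266, with 3.05% called). Without SN-011 replicate 2, all SN-011 libraries carried Xist and all PBS libraries Y-linked reads. That fit cannot tell treatment apart from these. Each of the libraries held 13 to 48 reads of Blm.

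No mitotic gene had SN-011 and PBS groups apart. For Mki67, SN-011 replicate 1 (1.42 CPM) and replicate 3 (15.9 CPM) lay on either side of the whole WT range, and the log2 difference from PBS was -0.81 (SE 0.65, edgeR adjusted p 0.673). Ccna2, Bub1, Cdc20 and Top2a had differences of -0.84, -1.10, -0.74 and -0.88 with standard errors of 0.48 to 0.69. With the Y-linked term the log2 difference from PBS was -0.20 for Mki67, -0.44 for Ccna2, -0.50 for Bub1, -0.41 for Cdc20 and -0.28 for Top2a. Kif23 alone was above 0, at 0.04 (SE 0.30, adjusted p 0.979), and at 0.062 with the Y-linked term.

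In the S phase genes, Mcm2 was at 12.8, 13.5 and 18.1 CPM with SN-011 and Mcm5 at 6.74, 5.51 and 9.44 CPM. Both groups lay below every PBS library, with log2 differences of -0.42 (SE 0.19, edgeR adjusted p 0.44) and -0.73 (SE 0.38, adjusted p 0.498). Mcm6 differed by -0.36, Cdc45 by -0.40, Ccne1 by -0.34, Ccne2 by -0.17 and Pcna by -0.10, all with overlapping groups. With the Y-linked term Mcm6 was at -0.0083 and Ccne2 at -0.23, and Ccne1, Cdc45 and Pcna were above 0.

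Of the 110 further cell cycle genes, 0 were called between SN-011 and PBS by edgeR, and 9 had an unadjusted p under 0.05 with SN-011 lower and 1 with it higher, where 5.68% and 5.77% of all genes did. The gene that was higher was Cdkn2b, the CDK inhibitor p15, at 4.67, 6.10 and 6.07 CPM in WT, 4.08, 2.74 and 4.60 CPM with PBS and 8.73, 5.51 and 4.51 CPM with SN-011 (log2 0.72, SE 0.28, adjusted p 0.384). SN-011 replicate 1 was its highest library and SN-011 replicate 3 lay within the PBS range. Brca2, which acts in homologous recombination, was at 4.01, 4.20 and 4.45 CPM in WT, 5.12, 4.73 and 5.22 CPM with PBS and 2.72, 1.80 and 4.69 CPM with SN-011, with PBS above both other groups (log2 -0.71, adjusted p 0.401). Gmnn, the inhibitor of origin licensing, differed by -0.52 (adjusted p 0.289), and the condensin subunit Ncapd2 by -0.59 (adjusted p 0.4).

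The third comparison, SN-011 against WT, shares its libraries with the other comparisons. By edgeR 0 of 37 genes were called, where 1.28% of all genes were, and DESeq2, edgeR's exact test and limma-voom called 0 as well, against 4.9%, 3.61% and 1.08% of all genes. Without the filter Kif23 passed (adjusted p 0.0475), as did 1.96% of all genes. At an unadjusted p under 0.05, Kif23 and Cenpf were higher and Blm was lower, where 9.88% of all genes were higher and 8.13% lower. SN-011 lay wholly above WT in 1 gene, Kif23, and wholly below it in 1, Blm, where 11.8% and 9.99% of all genes did so.

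Kif23 had a log2 difference from WT of 0.89 (SE 0.30, edgeR adjusted p 0.168), beside 0.86 in the PBS group. Its lowest SN-011 library (10.3 CPM) lay just above its highest WT library (9.85 CPM). Cenpf, at 1.19, 2.96 and 6.47 CPM with SN-011 against 0.424, 1.17 and 2.14 CPM in WT, differed by 1.52 (SE 0.61, adjusted p 0.231). Blm differed by -0.85 (SE 0.27, adjusted p 0.145). The median difference was -0.01 over the S phase genes and 0.68 over the mitotic genes, and over all 37 it was 0.49, -0.20 without SN-011 replicate 3, 0.93 without WT replicate 3 and 0.91 without SN-011 replicate 1. The median of the mitotic genes was -0.055 without SN-011 replicate 3 and 1.45 without WT replicate 3, and that of the S phase genes -0.22 and 0.29, so that both turned sign. Of the 37 genes, 12 were higher at an unadjusted p under 0.05 without WT replicate 3 (7.9% of all genes were) and 11 without SN-011 replicate 1 (8.75%), and 0 were without WT replicate 2 (6.55%). With the Y-linked term the median was 0.63, and Kif23 and Blm were at 0.89 and -0.85.

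Of the further cell cycle genes, Myc, a transcription factor that drives G1 entry, was called between SN-011 and WT. It was at 5.61, 7.05 and 7.35 CPM in WT, 11, 9.52 and 8.52 CPM with PBS and 15.4, 11.9 and 10.6 CPM with SN-011. All Trex1-/- libraries lay above all WT libraries, and Myc rose with a log2 difference of 0.92 (SE 0.18, edgeR adjusted p 0.0409), beside 0.54 in PBS against WT (adjusted p 0.191). Lin9, a subunit of MuvB, was higher by 0.49 without overlap (adjusted p 0.155), Smc4, a condensin subunit, by 0.37 (adjusted p 0.16), and Cdkn1b, the inhibitor p27, differed by 0.22 (adjusted p 0.299).

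Transcripts whose level varied most like that of the set were sought among 14806 other genes with a mean of at least 1 CPM. The 10 highest Pearson r of log2 CPM with the median of the 37 genes over the 9 libraries were those of Ankle1 (0.987), Nuf2, Cdca3, Clspn, Gimap6 (0.973), Cdca8, Asf1b, Ckap2l, Kif4 and Ccnf (0.958). Of these, 5 were in the lists of further cell cycle genes. Ankle1 was at 0.424, 0.361 and 1.33 CPM in WT, 1.71, 1.34 and 4.04 CPM with PBS and 0.340, 1.16 and 3.15 CPM with SN-011. Gimap6, of the family of GTPases of immunity-associated proteins, spanned 29.9 to 37.5 CPM.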

How the data were processed

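Total kidney RNA was extracted with Trizol, selected for polyadenylated RNA and sequenced as strand-specific paired reads. The authors trimmed the reads with Trimmomatic, aligned them with HISAT2 under default settings, kept unique pairs and counted them per gene with featureCounts, and the deposited values are these raw counts per gene. The submitters' processing notes name the build mm10. Tool versions, the annotation and the strand setting of the counting are not given in the sources used here.

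The counts of 9 libraries were read as deposited, and 54495 of 54532 Ensembl identifiers were matched to the annotation. Genes were kept with edgeR's filterByExpr (minimum count 10, minimum total 15), which left 16646. TMM scaling and the quasi-likelihood test of edgeR 4.0.16 (R 4.3.3) were fitted on all 3 groups without covariates, and p-values were adjusted by Benjamini-Hochberg over all genes tested, with a threshold of 0.05. Log2 CPM used a prior count of 2. Groups came from the sample titles. Libraries with Y-linked reads and libraries with Xist, found within the WT group and within the SN-011 group, came from different animals. The study gives an n of 3 for each Trex1-/- group without saying that these are separate animals, and the labels do not say so either, so the spread behind the p-values may be technical in part. Total counts of 16118813 to 21928965 limit the precision, mostly in genes with few reads.

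The 37 genes and all lists were chosen with earlier results of these data known. Values per library were given for any gene called, for the gene with the smallest p in each comparison, and for the genes of highest mean CPM and of smallest p (PBS against WT) in each of 7 roles. Ccnb1, Ccnb2, Cdk1, Cenpf, Mcm2, Mcm4, Mcm5, Tyms and Uhrf1 were given values in addition, chosen after their values were seen. From the other cell cycle lists, genes called and those with the smallest p in each comparison were named. Libraries were taken as holding Y-linked reads at a sum of at least 10 CPM.

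Alternatives were DESeq2 (1.42.0) size factors and its test, upper-quartile scaling, no filter, a mean of at least 50 counts, edgeR's exact test, limma-voom (limma 3.58.1), the replicate number as a block, a term for Y-linked reads, only the libraries compared, and each library left out. The fitting code was tested on simulated data.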

Additional observations from a re-analysis of the deposited data

How the results depend on the processing

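Across 19 alternative settings, 642 of 672 values of the 12 members followed kept their direction and their side of the threshold, 9 newly passed it and 21 changed sign. Members called between PBS and WT numbered 0 as reported, 2 without the filter, 2 with DESeq2, 1 with the replicate block (Ccna2, log2 1.68, adjusted p 0.024) and 3 with only the 6 libraries compared. Between SN-011 and PBS they numbered 1 without the filter, 1 with DESeq2, 1 with edgeR's exact test and 0 to 1 with each library left out, and between SN-011 and WT 1 without the filter (Kif23, adjusted p 0.0475). The cause was not tested.

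Changes of sign were as follows. Mcm6 between PBS and WT was 0.0335 with limma-voom and -0.28 to 0.39 with each library left out, and Ccne2 -0.0463 to 0.22. Between SN-011 and PBS, the Y-linked term gave 0.0945 for Ccne1, 0.0704 for Cdc45 and 0.038 for Pcna, and leaving out libraries gave -0.22 to 0.0409 for Pcna and -0.22 to 0.24 for Kif23. Between SN-011 and WT, leaving out libraries gave -0.28 to 0.0734 for Ccne2, -0.16 to 0.43 for Cdc45, -0.0769 to 0.26 for Pcna, -0.64 to 0.02 for Mcm6, -0.33 to 1.45 for Cdc20 and -0.37 to 1.68 for Top2a. The median change of the 37 genes was 0.74 to 1.36 between PBS and WT, -0.95 to -0.21 between SN-011 and PBS and -0.20 to 0.93 between SN-011 and WT. Of the library scores, PBS replicate 2 was 2.56 as a mean over members against 2.01 as the median, which put it above WT replicate 3 (2.43).

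Replicate numbers were not taken to pair the samples, since the deviations of same-numbered libraries correlated at -0.294 to 0.242 and not every one passed 0.1. Between PBS and SN-011 they were 0.198, 0.242 and 0.0981, and each library there correlated best with its own number. Between WT and PBS they were 0.133, -0.00809 and 0.102. With 3 libraries per group such a match can arise without pairing, and no pairing is described in the design. With the block, genes at an unadjusted p under 0.05 numbered 24 higher between PBS and WT (12 without it), where 8.41% of all genes were in the blocked fit, and 13 lower between SN-011 and PBS (1 without it), Ccna2, Bub1, Cdc20, Mki67 and Top2a among them, where 6.51% of all genes were. Between SN-011 and WT they numbered 4 higher and 1 lower, where 10.4% and 8.82% of all genes were. The block moved the median to 0.84, -0.63 and 0.45 in the 3 comparisons. Over all genes, calls between PBS and WT numbered 313, and 198 with the Y-linked term, 726 with DESeq2, 683 with the exact test, 707 without the filter, 751 with 6 libraries and 153 to 774 with libraries left out. Between SN-011 and PBS there were 0, and 183, 127 and 127 with DESeq2, the exact test and no filter, and 0 to 519 with libraries left out. The 519 came without SN-011 replicate 2, where all SN-011 libraries carried Xist and all PBS libraries Y-linked reads. Between SN-011 and WT there were 213, and 656 with the Y-linked term, 816, 601 and 607 with DESeq2, the exact test and no filter, 43 with 6 libraries and 38 to 376 with libraries left out. Counts were lowest in Ccnb1 and Bub1 (3 reads in SN-011 replicate 1).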
